A study of Mus musculus with 6 samples.

Results

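Translation factors and aminoacyl-tRNA synthetases were followed in tumour cells sorted from mouse lungs. The genes were taken from the count table by name, as protein-coding genes whose symbols begin with Eif1 to Eif6, Eef1 or Eef2, or have the form of a tRNA synthetase symbol such as Aars, Vars2 or Eprs. This rule gave 106 genes of the 55487 in the table, and 101 of them passed the filter on low counts. The other 5, Eef1a2, Eif4e1b, Eef1akmt3, Eif4a3l1 and Eif4a3l2, did not exceed 0.398 CPM (counts scaled to library size, with TMM factors between libraries) in any library. The libraries came from KP tumours, a mouse model of lung adenocarcinoma. Cells positive for GFP and negative for CD45, the leukocyte surface marker, were sorted 11 weeks after tumours were started. There were 3 libraries from Lkb1 wild-type tumours that carried the control guide sgNeo, and 3 from Lkb1 mutant tumours that carried sgLkb1. Lkb1, encoded by Stk11, is a kinase that activates AMPK. For the delivery of the guides, the start of the tumours, the age and sex of the mice and their number, no detail is stated, and whether each library came from its own mouse is not given in the sources used here, and p-values therefore cover only the spread among these libraries.

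Initiation begins when eIF2, bound to GTP and the initiator tRNA, joins the small ribosomal subunit together with eIF1, eIF1A, eIF3 and eIF5. The eIF4F complex, made of the cap-binding protein eIF4E, the helicase eIF4A and the scaffold eIF4G, brings the mRNA, and the 4E-BP proteins block eIF4E unless mTORC1 phosphorylates them. Stress kinases phosphorylate the alpha subunit of eIF2, which inhibits its exchange factor eIF2B and lowers overall initiation while favouring a few mRNAs such as Atf4. During elongation eEF1A delivers charged tRNAs and eEF2 moves the ribosome, and eEF2 kinase, which AMPK signalling activates, halts eEF2. The synthetases charge each tRNA with its amino acid, in mostly but not wholly separate sets of enzymes for the cytosol and the mitochondrion. Most of this control acts on proteins, through phosphorylation, and the values below are mRNA levels only.

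The libraries held 26007503 to 41729299 counts each. Stk11, the targeted gene, stood at 68.3, 33.4 and 82.7 CPM in sgNeo libraries and at 23.5, 25.6 and 25.3 in sgLkb1 libraries. Its log2 fold change, sgLkb1 minus sgNeo, was -1.31 ± 0.30 (SE, n = 3 per group) with an adjusted p of 0.023 in edgeR's quasi-likelihood test, and the groups did not overlap. Its call was lost in 5 of the 6 fits that left out a library, all but that without sgNeo replicate 2, with adjusted p-values up to 0.076. The sorted populations differed in other ways. All 7 alveolar type 2 markers tested fell in sgLkb1, against 8.6% of all genes called lower. Of 5 general epithelial markers 2 rose, against 7.05% of all genes called higher. Summed fibroblast markers, 4 of 7 of them higher, ran from 37.0 to 116 CPM in sgNeo and from 178 to 1393 in sgLkb1, highest in replicate 3. Summed mesothelial markers (2 of 4 tested higher) ran from 171 to 428 and from 828 to 1416 CPM, and endothelial markers (3 of 6 higher) from 26.7 to 44.1 and from 64.0 to 108.8 CPM. Leukocyte markers summed to 32.7 to 39.3 and 33.5 to 72.3 CPM, and 5 of 7 tested had log2 fold changes above 0. Of these 7, edgeR and limma-voom called 0 higher and 1 lower (Cd79a), and DESeq2 3 higher and 1 lower. Ptprc, which encodes CD45, did not exceed 10.4 CPM. DESeq2 called 4 of 5 epithelial and 3 of 4 mesothelial markers higher, and limma-voom 1 of 7 fibroblast and 1 of 4 mesothelial markers. With a library left out, edgeR kept the calls of Sftpc, Sftpa1, Sftpb, Lamp3, Abca3, Etv5, Cdh5 and Aldh1a2 in all 6 fits. Col3a1, Col1a2 and Col1a1 lost theirs in 3 of 6, and Pdgfra, Kdr, Nkx2-1 and Cd79a in 4. Epcam lost its call in 2 fits, and Krt19, Emcn and Msln each in 1. Erythroid markers (0 of 3 called by edgeR, DESeq2 or limma-voom, and 0 at an unadjusted p under 0.05) summed to 7.58 to 8.66 and 1.59 to 9.13 CPM. No list had a marker at 0 in every library. The part of these cells in the values below was not tested, and fewer cells of a type and less RNA per cell cannot be told apart in bulk libraries.

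The stretches upstream of the 4 genes of the set that passed the test are shown because they are the genes on which the comparison turns. They come from RefSeq (GRCm38.p6), read 5′ to 3′ on the gene's strand, without bases in annotated exons, and capitals mark the E-box CACGTG, the motif bound by MYC and related factors.
Eif2ak4 (chr2:118388417-118388616, plus strand): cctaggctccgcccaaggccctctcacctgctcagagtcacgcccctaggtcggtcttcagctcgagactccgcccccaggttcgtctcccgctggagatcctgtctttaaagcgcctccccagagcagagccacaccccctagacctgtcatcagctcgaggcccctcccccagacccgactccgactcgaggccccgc
Vars2 (chr17:35667593-35667729, minus strand): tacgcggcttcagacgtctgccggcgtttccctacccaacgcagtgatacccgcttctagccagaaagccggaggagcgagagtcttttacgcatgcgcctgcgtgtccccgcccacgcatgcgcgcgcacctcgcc
Eef1e1 (chr13:38659059-38659228, minus strand): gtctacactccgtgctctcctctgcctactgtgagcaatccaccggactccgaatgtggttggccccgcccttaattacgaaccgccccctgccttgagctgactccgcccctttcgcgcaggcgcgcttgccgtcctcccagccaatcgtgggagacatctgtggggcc
Eef2k (chr7:120842631-120842830, plus strand): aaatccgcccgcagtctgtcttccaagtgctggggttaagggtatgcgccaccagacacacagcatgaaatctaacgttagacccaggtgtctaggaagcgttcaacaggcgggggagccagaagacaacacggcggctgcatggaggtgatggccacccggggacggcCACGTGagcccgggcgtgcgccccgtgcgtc
Among these 4 stretches only that of Eef2k held an E-box.

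RefSeq promoter windows were at hand for 79 of the 106 genes. In the 250 bases upstream of any of a gene's RefSeq starts, searched on both strands, CACGTG was present in 15 of the 79 (19.0%), against 7.81% of 16802 protein-coding genes. The 15 include factors of the cap-binding complex and of elongation, and short stretches of 4 of them are shown with the E-box in capitals. Those of Eif4g1 and Eif5a lie inside the gene as GENCODE M21 places it, upstream of a RefSeq start within it.
Eif4a1 (chr11:69672581-69672638, minus strand): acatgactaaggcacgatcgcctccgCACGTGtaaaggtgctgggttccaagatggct
Eif4g1 (chr16:20672647-20672704, plus strand): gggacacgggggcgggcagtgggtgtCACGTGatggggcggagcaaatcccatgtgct
Eef2 (chr10:81176562-81176619, plus strand): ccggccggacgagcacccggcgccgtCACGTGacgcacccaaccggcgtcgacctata
Eif5a (chr11:69921429-69921486, minus strand): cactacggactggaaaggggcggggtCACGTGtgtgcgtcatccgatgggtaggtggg
The ETS core CCGGAAG was found in 18 of 79 (22.8%, against 10.4%), and the cyclic AMP response element TGACGTCA in 0, against 2.27%. TGATGCAA, the composite core of ATF4 and C/EBP sites, was found in 2 (Aars and Tars, 2.53% against 0.946%), and the match of Tars, on the opposite strand, is shown in capitals.
Tars (chr15:11399666-11399699, minus strand): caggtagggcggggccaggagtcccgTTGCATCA
The 15 genes with an E-box had a median log2 fold change of 0.13 and the 62 tested genes without it one of 0.07. For the ETS core the medians were 0.00081 with it (18 genes) and 0.094 without (59). For TGATGCAA they were -0.19 with it (2 genes) and 0.090 without (75). The motifs are letter matches and were not tested for binding. The comparison took all protein-coding genes with a window and did not match them to the set by expression. Whether the shares are particular to the set was not tested.

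Across the set, few genes differed between the genotypes, and none by more than 1 on the log2 scale. By edgeR's quasi-likelihood test with Benjamini-Hochberg adjustment over all 15978 genes tested, 4 of 101 genes differed (3.96%), against 15.7% of all genes. Eef1e1 and Eef2k rose in sgLkb1 (2 genes, against 7.05% of all genes higher), and Eif2ak4 and Vars2 fell (2 genes, against 8.6% lower). The set is abundant, with 96 of 101 genes at a mean of at least 10 CPM, and of all genes at that level 18.1% were called. At an unadjusted p under 0.05 there were 19 genes of the set, against 30.3% of all genes. The median log2 fold change was 0.09 over the set and 0.02 over all genes tested. Log2 fold changes were above 0 for 64 of the 101 (51.2% of all genes) and ran from -0.86 (Eif5a2) to 0.89 (Eif1ax). Of all genes tested 22% lay beyond -1 or 1. The 95% interval of the log2 fold change lay within -1 and 1 for 81 of them (80.2%), against 43.6% of all genes and 67.1% of those at 10 CPM or more. Values of 11 genes lay wholly higher in sgLkb1 (16.3% of all genes did) and those of 13 wholly lower (20.3%), and all 4 called genes were among these 24.

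**Figure D1:**
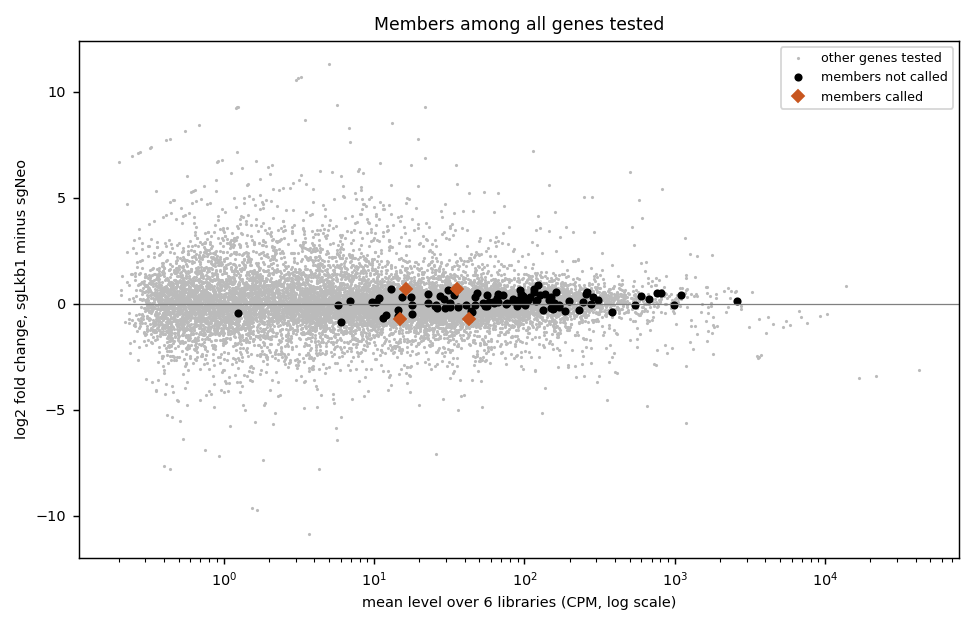
Log2 fold change (sgLkb1 minus sgNeo) of each gene tested against its mean CPM on a log axis, with the translation factors and synthetases drawn over all other genes tested. The 101 genes of the set lie between -0.86 and 0.89, and the 4 called genes lie near 0.7 on either side of 0.

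The split of calls depended on the scaling between libraries. With RLE scaling 5 genes were higher and 1 lower, and with upper-quartile scaling 4 and 1, since Eif4a1, Eif1ax and Eif2s1, just outside the threshold, moved inside it while Vars2, and with upper-quartile scaling also Eef2k, moved out. Of all genes, 15.7% were called with RLE and 15.8% with upper-quartile scaling. DESeq2 called 7 higher and 2 lower (8.91% of the set, against 22.3% of all genes). With limma-voom 2 were higher and 2 lower (3.96%, against 14.3%). With any single sgNeo library or sgLkb1 replicate 2 left out, 0 genes of the set were called by edgeR, with 8 to 14 at an unadjusted p under 0.05 in those 4 fits, and between 6.74% and 9.42% of all genes were called there. Leaving out sgLkb1 replicate 1 gave 4 higher and 1 lower, with 16.6% of all genes called. Leaving out sgLkb1 replicate 3 gave 4 and 2, with 13.2% of all genes called.

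Eif2ak4 encodes GCN2, the eIF2-alpha kinase that senses uncharged tRNA. Its level was 18.3, 19.2 and 18.2 CPM in sgNeo and 10.4, 11.0 and 11.9 CPM in sgLkb1. Every sgLkb1 library lay below every sgNeo library. The log2 fold change was -0.74 ± 0.18 (SE, n = 3 per group, 95% interval -1.14 to -0.34, adjusted p = 0.025 in edgeR). Vars2, the mitochondrial valyl-tRNA synthetase, stood at 46.5, 56.2 and 57.6 CPM in sgNeo and at 25.3, 33.2 and 39.7 CPM in sgLkb1. The groups did not overlap, and the log2 fold change was -0.71 ± 0.20 (SE, n = 3 per group, 95% interval -1.16 to -0.25, adjusted p = 0.046 in edgeR). Exons of Gm20483 overlap Vars2 on the opposite strand, and with the strand setting not given their reads cannot be told apart.

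Eef1e1 encodes AIMP3, a scaffold protein of the multi-synthetase complex that carries an eEF1 family name. It stood at 27.8, 26.9 and 26.7 CPM in sgNeo and at 43.5, 49.6 and 38.4 CPM in sgLkb1. All sgLkb1 values were above the narrow sgNeo range, with a log2 fold change of 0.69 ± 0.15 (SE, n = 3 per group, 95% interval 0.34 to 1.05, adjusted p = 0.021 in edgeR). Eef2k, the kinase that inhibits eEF2, stood at 12.5 CPM in each of the 3 sgNeo libraries and at 16.3, 23.9 and 20.8 CPM in sgLkb1. Its groups did not overlap, and the log2 fold change was 0.70 ± 0.20 (SE, n = 3 per group, 95% interval 0.25 to 1.15, adjusted p = 0.048 in edgeR). Gm15774 overlaps its exons on the opposite strand. Such overlaps were not limited to Vars2 and Eef2k. Of the 101 genes tested, 31 had an exon overlap with another gene on the opposite strand, among them Eif2d, Eif3m and Cars2. An overlap on the same strand was present for 15.

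Each of the 4 kept its direction in all 6 fits that left out a library, while its call did not hold in all of them. Eif2ak4 and Eef1e1 lost their calls with any single sgNeo library or sgLkb1 replicate 2 left out, with edgeR adjusted p-values up to 0.11 and 0.097. Vars2 lost its call also without sgLkb1 replicate 1 (adjusted p up to 0.15, the largest without sgNeo replicate 2), and Eef2k also without sgLkb1 replicate 3 (up to 0.16, again without sgNeo replicate 2). Eef2k further missed the threshold with limma-voom (adjusted p = 0.072), no filter on low counts (0.053) and upper-quartile scaling (0.050). Vars2 missed it with RLE (0.058) and upper-quartile scaling (0.065) and without the 10 most abundant genes (0.055), and Eif2ak4 with no filter (0.078).

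**Figure D2:**
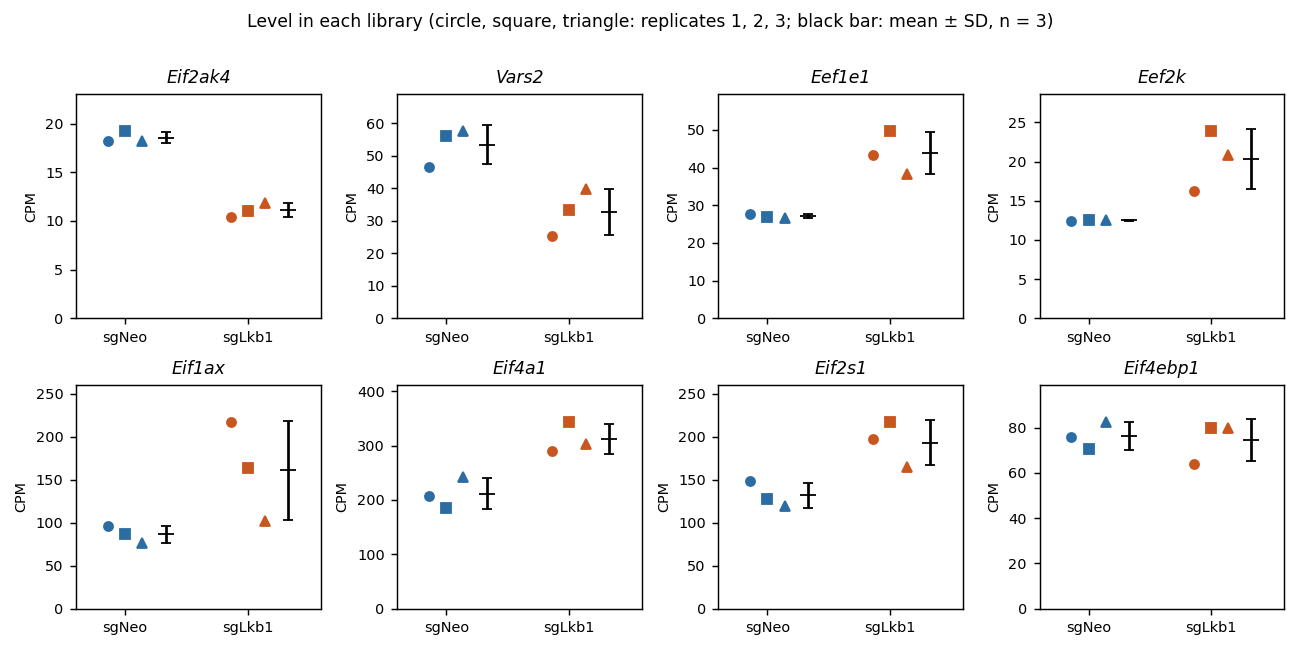
CPM of 8 genes in each library, with the 3 libraries of each group as separate symbols and the mean ± SD beside them. Eif2ak4 and Vars2 are lower and Eef1e1 and Eef2k higher in every sgLkb1 library, Eif1ax, Eif4a1 and Eif2s1 show separate groups without passing the test, and the Eif4ebp1 groups overlap.

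The class named for scanning and start-codon factors held 8 genes, with Eif1ad, Eif5b and Eif6 counted in it. Of these 8, 0 were called, with 1 at an unadjusted p under 0.05 in edgeR, and DESeq2 called 1 and limma-voom 0. Their median log2 fold change was 0.32, with 7 of 8 above 0. Eif1ax, an eIF1A gene on the X chromosome, stood at 96.3, 87.3 and 76.8 CPM in sgNeo and 217, 164 and 102 CPM in sgLkb1. Its groups did not overlap, and its log2 fold change of 0.89 ± 0.26 had an edgeR adjusted p of 0.056. The related autosomal gene Eif1a was more abundant, at 203, 184 and 185 CPM in sgNeo and 233, 212 and 173 CPM in sgLkb1. Its groups overlapped, with a log2 fold change of 0.11 ± 0.16 (adjusted p = 0.69 in edgeR). Eif1, which guards start-codon choice, was the most abundant of the class in CPM, at 1031, 867 and 930 CPM in sgNeo and 1866, 929 and 942 CPM in sgLkb1. Only sgLkb1 replicate 1 stood above the sgNeo range, and without it the log2 fold change went from 0.40 to -0.00056. That library held the highest value of 6 of the 8 factors.

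The eIF2 and eIF2B class had 0 of 11 genes called, with 4 at an unadjusted p under 0.05 in edgeR, while DESeq2 called 1 and limma-voom 0. Its median log2 fold change was 0.40 and 9 of 11 were above 0. Eif2s1, the alpha subunit that the stress kinases phosphorylate, stood at 148, 127 and 120 CPM in sgNeo and 198, 217 and 165 CPM in sgLkb1, without overlap. Its log2 fold change was 0.55 ± 0.17 (edgeR adjusted p = 0.061). The gamma subunit is encoded on both sex chromosomes, and Eif2s3x had a log2 fold change of 0.42 and Eif2s3y of 0.46, neither past the test (adjusted p of 0.13 and 0.24 in edgeR). Eif2s3y was present in all 6 libraries, at 44.6 to 89.6 CPM. Eif2d, a separate initiation factor that can deliver tRNA without eIF2, ran the other way, at 49.3, 53.7 and 48.7 CPM in sgNeo and 35.5, 41.1 and 40.2 CPM in sgLkb1. Its groups did not overlap, yet its log2 fold change of -0.38 ± 0.14 did not pass (edgeR adjusted p = 0.11).

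Among the 4 eIF2-alpha kinases Eif2ak4 was the only gene called, and it fell. Eif2ak1 (HRI, the heme-regulated kinase) had a log2 fold change of 0.09, Eif2ak2 (PKR, activated by double-stranded RNA) of 0.24 and Eif2ak3 (PERK, of the endoplasmic reticulum) of 0.03, with edgeR adjusted p-values of 0.69, 0.62 and 0.93. The 95% interval of Eif2ak3 ran from -0.39 to 0.45. Whether Eif2ak4 differed from the other kinases in its change was not tested.

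The eIF3 complex, the scaffold on the small subunit, had 0 of 14 genes called by edgeR, DESeq2 or limma-voom, with 2 at an unadjusted p under 0.05 in edgeR. Its median log2 fold change was 0.18, and the summed level was 1985, 1917 and 2049 CPM in sgNeo and 2313, 2160 and 1991 CPM in sgLkb1, so the groups overlapped. Eif3b, an RNA-binding core subunit, was lower in each sgLkb1 library at 434, 427 and 445 against 282, 324 and 375 CPM (log2 fold change -0.41 ± 0.16, edgeR adjusted p = 0.13). Eif3m was higher in each, at 113, 118 and 114 against 192, 161 and 121 CPM (0.46 ± 0.19, adjusted p = 0.14 in edgeR). Eif3e stood at 104, 89.1 and 70.6 CPM in sgNeo and 216, 131 and 80.4 CPM in sgLkb1, with overlap and a log2 fold change of 0.70 ± 0.33.

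**Figure D3:**
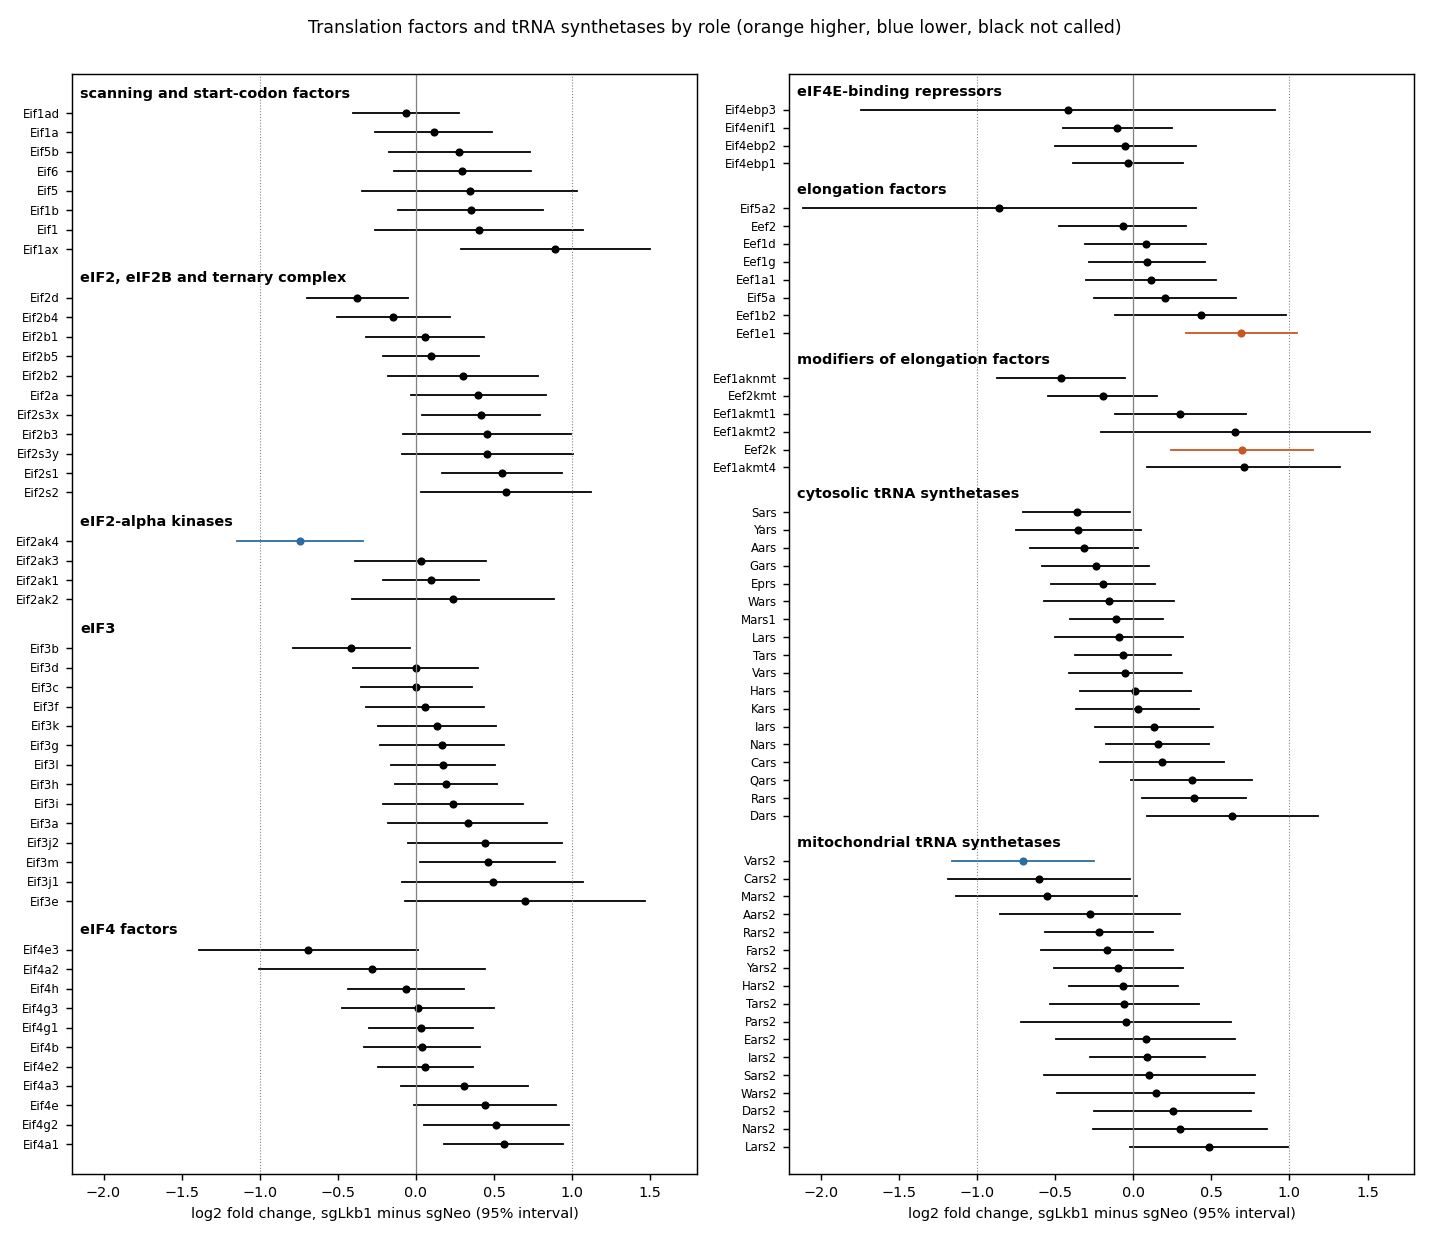
Log2 fold change (sgLkb1 minus sgNeo) with its 95% interval for the tested genes, grouped by role. Most intervals cross 0 and 81 of 101 lie within -1 and 1, while Eif5a2 and Eif4ebp3, both rare, have the widest.

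In the eIF4 class 0 of 11 tested genes were called, with 2 at an unadjusted p under 0.05 in edgeR, and DESeq2 called 2 higher and limma-voom 1. Eif4a1, the main eIF4A helicase, stood at 207, 186 and 242 CPM in sgNeo and 290, 343 and 303 CPM in sgLkb1. These groups did not overlap, and its log2 fold change of 0.56 ± 0.17 lay just outside the threshold (edgeR adjusted p = 0.055; 0.048 with limma-voom). Eif4g2 (DAP5, an eIF4G relative that does not bind eIF4E) was the most abundant of the class in CPM, at 687, 598 and 594 against 1105, 859 and 719 CPM, with 0.51 ± 0.20 and an adjusted p of 0.13 in edgeR. The cap-binding protein gene Eif4e, at 245, 187 and 224 against 350, 307 and 234 CPM, overlapped between groups (0.44 ± 0.20, adjusted p = 0.17 in edgeR), and the scaffold gene Eif4g1 had a log2 fold change of 0.03 with a 95% interval from -0.30 to 0.36. Eif4e3, a divergent cap-binding relative, was lower in each sgLkb1 library at 13.4, 13.2 and 16.0 against 5.31, 11.8 and 9.24 CPM, with -0.69 ± 0.31 (adjusted p = 0.17 in edgeR).

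Of the 4 repressors that bind eIF4E 0 were called by edgeR, DESeq2 or limma-voom and 0 had an unadjusted p under 0.05, and their summed level was 158, 150 and 155 CPM in sgNeo and 145, 151 and 147 CPM in sgLkb1, with overlap. Eif4ebp1, the classical mTORC1 target, stood at 75.9, 70.6 and 82.5 against 63.8, 80.0 and 79.7 CPM, a log2 fold change of -0.04 with a 95% interval from -0.39 to 0.32. Eif4ebp2 had -0.05 (interval -0.50 to 0.40) and Eif4enif1 -0.10 (-0.45 to 0.25). Eif4ebp3, at about 1 CPM, had -0.42 with an interval from -1.74 to 0.91, too wide to tell a change in either direction.

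Elongation factors include the most abundant mRNAs of the set. Per length, Eef1a1 was the highest of all at 1043 RPKM (CPM per kilobase of merged exon) over the 6 libraries. It reached 2330, 2400 and 2763 CPM in sgNeo and 2950, 2554 and 2606 CPM in sgLkb1, overlapping, with a log2 fold change of 0.11 ± 0.18. Eef2 stood at 943, 956 and 1148 against 867, 962 and 1079 CPM (-0.07, 95% interval -0.48 to 0.34). Eif5a, which helps ribosomes through stalling sequences, stood at 565, 594 and 709 against 567, 825 and 759 CPM (0.20, interval -0.25 to 0.66). Of the 8 tested, Eef1e1 was the only gene called. Eef1a2, the muscle and neuron paralogue of Eef1a1, was at 0 counts in 5 libraries and at 0.086 CPM in sgLkb1 replicate 3, where 3 counts are worth that much. A count of 0 allows up to 0.12 CPM in an sgNeo library.

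Of 6 tested enzymes that modify elongation factors, Eef2k was called higher and the median log2 fold change was 0.48, with 3 genes at an unadjusted p under 0.05. Eef1akmt4, a methyltransferase of eEF1A, had 0.71 ± 0.27 (adjusted p = 0.12 in edgeR) and Eef1aknmt, which methylates the N-terminus of eEF1A, -0.46 ± 0.18 (0.12). Eef1aknmt stood at 20.3, 21.3 and 20.8 CPM in sgNeo and 13.7, 17.6 and 14 CPM in sgLkb1, without overlap. Eef1akmt2 was led by sgLkb1 replicate 1, at 60.8 CPM against 31.4 and 20.97 in the other sgLkb1 libraries and 19.1 to 30.7 in sgNeo.

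The 18 synthetase genes counted as cytosolic were placed there by their symbols. They gave 0 calls in edgeR, with 3 at an unadjusted p under 0.05, while DESeq2 called 1 (Dars, higher) and limma-voom 0. Their summed level was 2094, 2140 and 2294 CPM in sgNeo and 2120, 2160 and 2168 CPM in sgLkb1, so the sgLkb1 libraries lay within the sgNeo range. The 95% interval was within -1 and 1 for 17 of 18. The groups did not overlap for 8 of the 18, with 3 higher in sgLkb1 (16.3% of all genes) and 5 lower (20.3%), none past the test. Rars, for arginine, stood at 56.7, 64.9 and 64.1 against 86.4, 85.3 and 71.7 CPM (0.39 ± 0.15, edgeR adjusted p = 0.11). Sars, for serine, stood at 203, 198 and 227 against 154, 155 and 180 CPM (-0.36 ± 0.15, edgeR adjusted p = 0.14). Dars, for aspartate, stood at 74.8, 84.0 and 61.9 against 151, 110 and 81.1 CPM with overlap (0.63 ± 0.24, edgeR adjusted p = 0.11). Nars, for asparagine, the most abundant of the class in CPM, stood at 281, 279 and 312 against 334, 315 and 325 CPM, higher in each sgLkb1 library with a log2 fold change of 0.16.

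Mitochondrial synthetases had 1 of 17 called, Vars2, which fell, and a median log2 fold change of -0.06. Cars2, for cysteine, was lower in each sgLkb1 library at 16.2, 16.5 and 19.6 against 7.93, 14.5 and 12.2 CPM, with -0.60 ± 0.25 and an edgeR adjusted p of 0.15. Lars2, for leucine, stood far above the rest. Per length it was at 60.5 RPKM in sgNeo and 84.6 in sgLkb1, where the median of the class over all libraries was 3.01 RPKM. Its values were 664, 521 and 828 against 1104, 886 and 826 CPM, overlapping, and its log2 fold change of 0.48 ± 0.22 did not pass (edgeR adjusted p = 0.18). Lars2 made up most of the summed level of the class, which was 1027, 902 and 1231 CPM in sgNeo and 1439, 1258 and 1161 CPM in sgLkb1.

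**Figure D4:**
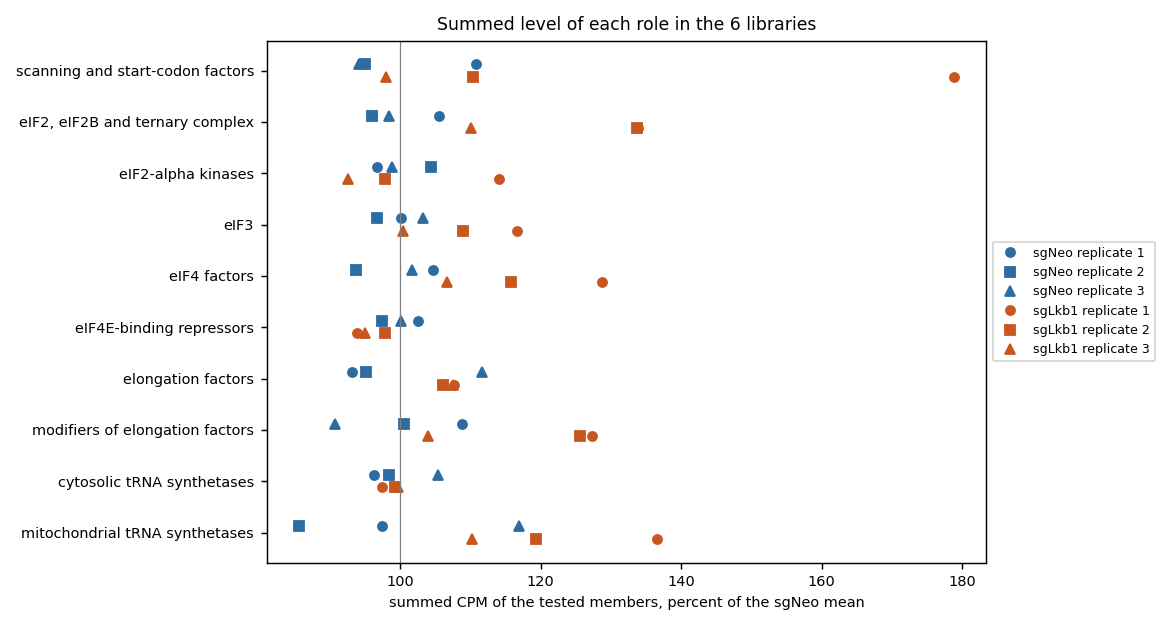
Summed CPM of the tested genes of each role in each library, drawn as a percentage of the sgNeo mean of that role. Scanning factors stand out in sgLkb1 replicate 1, while cytosolic synthetases in sgLkb1 lie within the sgNeo range. The sums of the scanning factors behind the percentages were 3579 CPM in that library, 1885 to 2219 in sgNeo and 1960 and 2210 in the other sgLkb1 libraries.

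The library sgLkb1 replicate 1, which had the most counts, held the highest value of 29 of the 101 tested genes (28.7%). It did so for 24.4% of all genes and 29.5% of those at 10 CPM or more. The set summed to 15175, 14474 and 16020 CPM in sgNeo and to 18742, 16685 and 15845 CPM in sgLkb1. As a share of all counts the set took 1.31 to 1.52% in sgNeo and 1.84 to 1.86% in sgLkb1. The 10 most abundant genes took 17.5 to 22.1% of counts in sgNeo and 6.68 to 8.66% in sgLkb1, and with them left out the set took 1.68 to 1.84% and 1.99 to 2.01%. The median coefficient of variation within a group was 10.2% in sgNeo and 15.6% in sgLkb1 for the set, and 11.7% and 18.5% for all genes at 10 CPM or more.

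Related genes outside the set were read from the same fit. Of 77 tested cytosolic ribosomal protein genes 2 rose (Rps16 and Rps27l) and 0 fell, against 7.05% of all genes higher, with a median log2 fold change of 0.22. Log2 fold changes were above 0 for 72 of the 77 (51.2% of all genes). Values of 23 lay wholly higher in sgLkb1 (16.3% of all genes) and those of 0 wholly lower (20.3%). At an unadjusted p under 0.05 in edgeR there were 12 of the 77, against 30.3% of all genes. DESeq2 called 5 of the 77 higher and limma-voom 1. With a library left out, Rps16 kept its call only without sgLkb1 replicate 1 (edgeR adjusted p up to 0.14) and Rps27l only without sgLkb1 replicate 3 (up to 0.16). Of 78 mitochondrial ones 5 rose, against 7.05% of all genes higher, and 0 fell, with a median of 0.11. At an unadjusted p under 0.05 in edgeR there were 9 of the 78, against 30.3% of all genes. Mrps6, of the small mitochondrial subunit, changed most among them, with 1.88 ± 0.19 (edgeR adjusted p = 0.00096). Mrps22, Mrpl15, Mrpl3 and Mrpl20, the other 4, had 0.59 to 0.93. Mrps6 kept its call in all 6 fits that left out a library, whereas the other 4 lost theirs with any single sgNeo library left out, and Mrps22, Mrpl15 and Mrpl20 also without sgLkb1 replicate 2 (edgeR adjusted p up to 0.16). The 5 tested release and rescue factors, which end translation or free stalled ribosomes, had a median of 0.42, with 0 called by edgeR and limma-voom, 1 by DESeq2 (Abce1), and 2 at an unadjusted p under 0.05 in edgeR. Mitochondrial translation factors had 0 of 10 called by any of the 3 tools and 0 at an unadjusted p under 0.05, and the 10 synthetase partners 0 by any, with 2 at an unadjusted p under 0.05 in edgeR.

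Targets of the integrated stress response, the program that phosphorylated eIF2 starts through ATF4, were mixed. Of 29, 2 rose (Stc2 and Ddit4), against 7.05% of all genes, and 3 fell (Sesn2, Vldlr and Pycr1), against 8.6%. At an unadjusted p under 0.05 in edgeR there were 9 of the 29, against 30.3% of all genes. The median log2 fold change was -0.25. Stc2, a secreted glycoprotein gene, stood at 1.36, 0.405 and 0.518 CPM in sgNeo and 14.8, 13.5 and 11.99 CPM in sgLkb1 (4.13 ± 0.48, edgeR adjusted p = 0.0015). Sesn2, which restrains mTORC1 when leucine is scarce, stood at 39.5, 41.99 and 43.1 against 19.7, 17.2 and 23.0 CPM (-1.05 ± 0.17, edgeR adjusted p = 0.0051). Atf4 itself had 0.10 ± 0.18 (adjusted p = 0.74 in edgeR) and Asns, the asparagine synthetase, -0.17 ± 0.23 (0.67). With a library left out, Stc2, Sesn2 and Vldlr kept their calls in all 6 fits, Ddit4 only without sgLkb1 replicate 1 (edgeR adjusted p up to 0.075) and Pycr1 in none (up to 0.15).

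Of 7 genes for mTORC1 and its regulators 1 was called, lower in sgLkb1, against 8.6% of all genes lower. This was Tsc2, which encodes tuberin, an inhibitor of mTORC1 that AMPK phosphorylates. It stood at 81.4, 97.9 and 79.5 CPM in sgNeo and 48.5, 50.6 and 56.1 CPM in sgLkb1 (-0.74 ± 0.15, edgeR adjusted p = 0.014). Its call was lost without sgNeo replicate 2 or sgLkb1 replicate 2 (adjusted p up to 0.077 in edgeR). Among 4 MYC family genes, whose products bind the E-box, Mycl rose (3.89 ± 0.94, edgeR adjusted p = 0.028) from at most 0.648 CPM in sgNeo to 2.47, 5.51 and 5.94 CPM, and Mycn fell (-1.65 ± 0.35, adjusted p = 0.016 in edgeR). Mycl lost its call without sgNeo replicate 1, sgLkb1 replicate 2 or sgLkb1 replicate 3 (edgeR adjusted p up to 0.093), and Mycn with sgLkb1 replicate 2 or either of sgNeo replicates 1 and 2 left out (up to 0.076). Myc had 0.33 ± 0.33 (adjusted p = 0.54 in edgeR). The poly(A), cap and S6 kinase partners had 0 of 14 called by edgeR, with 4 at an unadjusted p under 0.05, and DESeq2 called 2 and limma-voom 1. Pdcd4, an inhibitor of eIF4A, had 1.30 ± 0.38 (edgeR adjusted p = 0.054), and Mknk1, a kinase of eIF4E, -0.59 ± 0.17 (0.051). The 10 proliferation genes had 0 called by edgeR and limma-voom and 1 by DESeq2, with 3 at an unadjusted p under 0.05 in edgeR and a median of 0.46. These lists were counted, not tested as sets.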

How the data were processed

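RNA of sorted cells was sequenced from 3 libraries per genotype, with Nextera XT kits per the labels' protocols. The authors deposited RSEM expected counts per gene. FastQC, STAR, RSEM and DESeq2, with GRCm38, are named in the submitters' processing notes without versions. No strand setting or annotation release is given there. RSEM shares reads between similar genes, so paralogues such as Eif4a1 and Eif4a2 or Eif3j1 and Eif3j2 are less certain. Expected counts were rounded, filtered with filterByExpr, scaled by TMM and tested with edgeR 4.0.16 (R 4.3.3; glmQLFit and glmQLFTest, two-sided, genotype only, Benjamini-Hochberg threshold 0.05), which was first tested on simulated data. CPM uses the scaled library sizes. The SE is the absolute log2 fold change over the root of the F statistic. RPKM used merged exon lengths of GENCODE M21, in which all 106 genes were found by identifier without version. DESeq2 1.42.0, limma 3.58.1 (voom), other scalings and filters, and each library left out were alternatives. A floor of 3 counts corresponds to 0.12 CPM in sgNeo and 0.073 to 0.086 CPM in sgLkb1, for counting error only.

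Named were the called genes, the 3 with the lowest p and the most abundant of each role, a list of central factors and the 2 with the lowest p of each related list. Other names, such as Eif1a, Cd79a, Ddit4, Vldlr, Pycr1, Mrpl15, Mrpl3, Mrpl20, Myc, Atf4 and Asns, were chosen after their values were seen. The genes and lists were chosen with earlier results of these data known.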

Additional observations from a re-analysis of the deposited data

How the results depend on the processing

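The median log2 fold change of the set stayed within 0.06 to 0.14 in every setting tried, against 0.09. Its counts of calls did not. From 2 higher and 2 lower, they became 5 and 1 with RLE scaling, 4 and 1 with upper-quartile scaling, 5 and 1 with no filter on low counts, 5 and 1 without the 10 most abundant genes and 7 and 2 with DESeq2. With a library left out they ran from 0 to 4 higher and from 0 to 2 lower. Over all genes, 1127 higher calls became 1917 with no filter and 1819 with DESeq2, and 447 to 1368 with a library left out. The 1374 lower calls became 1740 with DESeq2 and 682 to 1412 with a library left out. With the replicate number as a block, 3 genes of the set were higher and 2 lower. Whether the numbers pair the libraries is not known. Correlations were 0.20, -0.02 and 0.18 for same-numbered libraries and ran from -0.24 to 0.11 for differently numbered ones. Of all genes 18% were called with the block, and this fit is given only as an alternative. It ended the call of Eef2k (adjusted p = 0.053) and called Eif1ax and Eif2s1. Of 868 alternative values of single named genes 756 kept direction and call, 54 lost and 46 gained a call, and 12 changed sign, all of these in genes that were not called. Those were Eif1 (-0.00056) and Eif2ak2 (-0.10) without sgLkb1 replicate 1, Eif4ebp2 (0.088) without sgLkb1 replicate 2, Eif4ebp1 with no filter (0.00069), without sgNeo replicate 3 (0.019) and without sgLkb1 replicate 1 (0.075), Eif4g1 without sgNeo replicate 1 (-0.0037) and sgLkb1 replicate 3 (-0.011), Eif2ak3 without sgNeo replicate 1 (-0.053) and sgLkb1 replicate 2 (-0.059), and Eef2 without sgNeo replicate 3 (0.024) and sgLkb1 replicate 1 (0.019). With a library left out, their values ran from -0.00056 to 0.60 for Eif1, -0.10 to 0.45 for Eif2ak2, -0.17 to 0.088 for Eif4ebp2, -0.10 to 0.075 for Eif4ebp1, -0.011 to 0.12 for Eif4g1, -0.059 to 0.12 for Eif2ak3 and -0.16 to 0.024 for Eef2. The cause was not tested. With 3 libraries a group and a median SE of 0.18, small changes of single genes were not detectable.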
